A study of Mus musculus with 8 samples.

Results

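The nuclei described here are the cortical nuclei with the most open chromatin at genes of GABAergic neurons. They were 135 of the 3870 nuclei with 5000 or more peak counts in the library from the mouse cortex at embryonic day E12.5, which held 4108 barcodes. The score of a nucleus was the share of its counts in peaks over the body, or the 2 kb upstream, of Dlx1, Dlx2, Dlx5, Dlx6, Gad1, Gad2, Slc32a1 and Lhx6, and the top 3.5% of nuclei were taken. The nuclei were thus chosen by their own counts at these 8 genes, and values of those counts describe the choice. They are called high-score nuclei below. Of the 8 genes, Dlx5 and Dlx6 lie on chromosome 6 and the others on chromosome 2. The part of counts over these whole chromosomes in the choice was not tested. The series holds 39253 barcodes in 8 libraries, of which 36695 had 5000 or more counts.

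The study profiled chromatin accessibility with droplet single-nucleus ATAC-seq, in which a transposase cuts open DNA and the fragments carry the barcode of their nucleus. All mice were WT, and libraries came from the cortex (CTX) and from the medial, caudal and lateral ganglionic eminences (MGE, CGE and LGE). CTX replicate 1 and the 6 eminence libraries, replicates 1 and 2 of each region, were E12.5. CTX replicate 2 was E14.5, so that age, library and replicate number cannot be told apart between the cortical libraries. Nothing in the labels says that replicates came from separate animals, and p-values then measure only the spread between these samples, which may be technical.

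The telencephalon makes most of its inhibitory neurons ventrally, in the ganglionic eminences, and its excitatory neurons dorsally, in the cortex. Young interneurons leave the eminences and migrate tangentially into the cortex, guided in part by the chemokine Cxcl12 and its receptors Cxcr4 and Ackr3. Dlx transcription factors drive this lineage, Gad1 and Gad2 make GABA, Slc32a1 loads it into vesicles, and Lhx6 marks interneurons of MGE origin. Accessibility is not expression, and nothing in these data follows the movement of a nucleus.

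The values outside the scored genes were mixed. In the E12.5 cortex 55 of them fell in a cluster made without the scored peaks. In these 55, Ackr3 and Kcnmb2 were higher, and all 16 cortical excitatory genes and 12 of 18 migration genes lower, than in nuclei that were neither high-score nor in the cluster. The other 80 lay among the remaining clusters, and in them 10 of 16 cortical excitatory genes were above the same reference, most by a small factor. Of 13 further genes of the GABAergic lineage 7 were above it there, Sp9 and Zeb2 among them, with a median log2 fold of 0.02. Sp9 and Zeb2 lie on chromosome 2, like most of the scored genes. The clusters were made from peaks that include those of these genes, so the values describe the sets of 1 library and carry no test.

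Counts per library ranged from 77387940 to 138873845 over all barcodes. The library of the high-score nuclei shared 17 to 40 barcodes with each other library, and 8 of the high-score nuclei carried a barcode that also occurred elsewhere. Doublets were not called. The median high-score nucleus held 14457 counts (range 5078 to 91669) and the median other nucleus of the library 23830, so the high-score nuclei were the shallower ones. Peaks near start sites took 43.7% of their counts and 41.1% of those of the other nuclei. The part of depth in the results was not tested.

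The score had no gap at the threshold. It was 8.6003 counts per 10000 in the last nucleus taken and 8.5997 in the first one left out, against a median of 2.47 in the library, 10.8 in the high-score nuclei and a highest value of 39.4. The median high-score nucleus rested on 18 counts in the scored peaks, and the median other nucleus on 6. In the eminences far more nuclei reached the same score. They were 68.9% and 69.4% of the MGE nuclei in replicates 1 and 2, 39.8% and 44.8% of the CGE nuclei and 35.8% and 48.2% of the LGE nuclei. In the E14.5 cortex they were 3.60%. Peaks were called separately in each library, and the scored peaks covered 79.9 kb in the E12.5 cortex and 144 kb in MGE replicate 2, the widest.

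**Figure D1:**
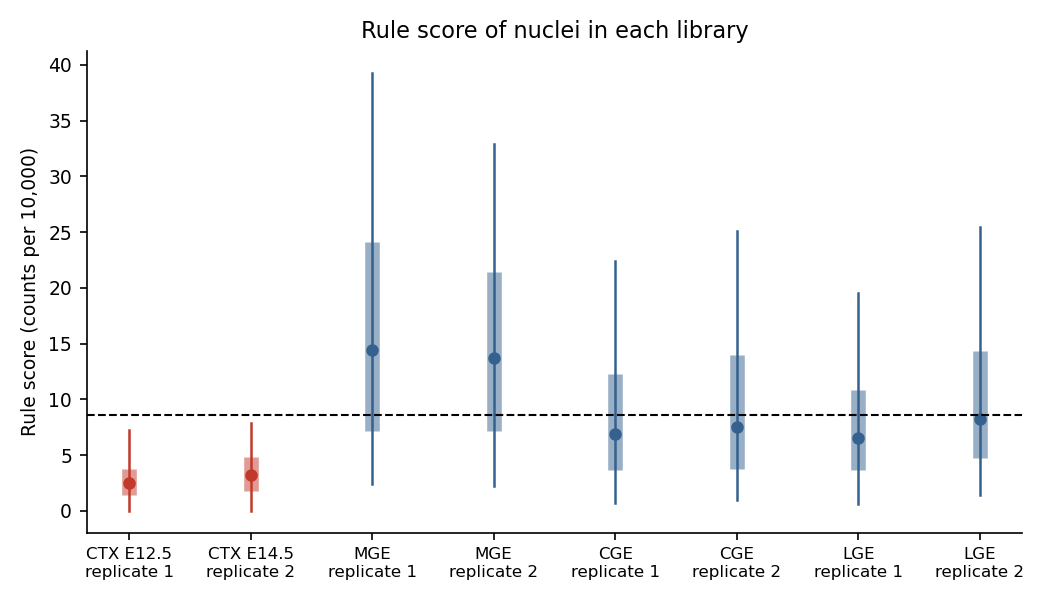
Rule score (counts per 10,000) of the nuclei with 5000 or more counts in each library, with the median (point), the quartiles (thick bar) and the 5th to 95th percentile (line). The dashed line is the score of the last high-score nucleus, 8.6003, which lies above the 95th percentile in both cortical libraries and below the median in both MGE libraries.

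The scored genes were 3.56-fold (Lhx6) to 5.55-fold (Dlx2) more accessible in the high-score nuclei than in the other nuclei. These folds describe the choice and were not tested. To see whether the genes were high together, nuclei were chosen again with each gene or adjacent pair left out of the score, and the gene left out was then read. In the E12.5 cortex every one of these 6 readings was higher in the chosen nuclei. Slc32a1 reached 66.3 CPM (counts scaled to the same total in each pool) in the nuclei chosen without it and 20.4 CPM in the others, a log2 fold of 1.70 (95% interval 1.37 to 2.01). Dlx1 and Dlx2 together reached a log2 fold of 1.52 (1.35 to 1.69). The lowest reading was that of Dlx5 and Dlx6, with a log2 fold of 0.84 (0.63 to 1.04). It was the only one of genes on chromosome 6, in nuclei chosen by chromosome 2 genes alone. Each other reading was of chromosome 2 genes in nuclei chosen in part by other genes of that chromosome. Whether the genes or wider parts of a chromosome were high together was not tested. All intervals within the library are exact, were computed on halved counts because both ends of a fragment are counted, and cover counting error only.

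In the E14.5 cortex, where the same rule took 168 of 4801 nuclei, the same readings were small. Slc32a1 had a log2 fold of 0.38 (-0.27 to 0.97) and Dlx1 and Dlx2 one of 0.13 (-0.14 to 0.39). Of the 6 readings, only the interval of Dlx5 and Dlx6 lay above 0 (0.31, 0.07 to 0.53).

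**Figure D2:**
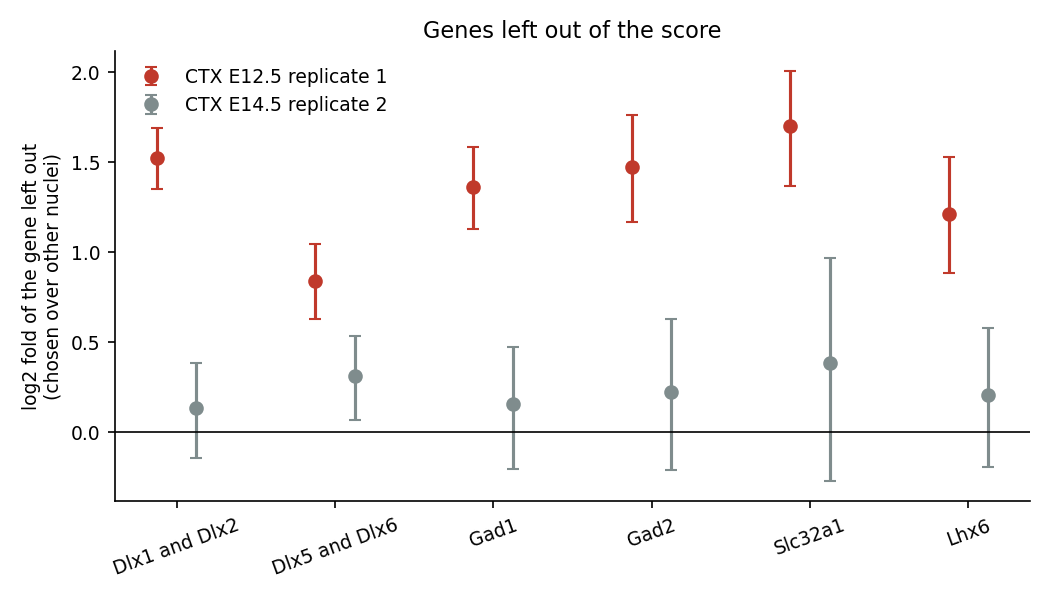
Log2 fold (chosen over other nuclei) of each gene or pair left out of the score, in the E12.5 and the E14.5 cortex. Points are folds and bars are 95% intervals of counting error. The E12.5 folds run from 0.84 to 1.70 and the E14.5 folds from 0.13 to 0.38.

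Beyond the scored peaks, most genes differed by less than 2-fold. Genes entered with 20 or more counts, observed or expected at the rate of the other nuclei. Of 15094 such genes, 133 (0.881%) were 2-fold or more higher in the high-score nuclei and 133 (0.881%) were 2-fold or more lower. With 1 library there was no test. The interval lay above 0 for 1924 genes (12.7%) and below 0 for 1129 (7.48%). Among single peaks, 3067 of 40014 (7.66%) were 2-fold or more higher and 2162 (5.4%) lower. With 50 counts in place of 20, 66 genes were 2-fold or more higher and 28 lower, so the balance of the directions depends on genes of few counts. With scores after thinning each nucleus to 5000 counts, 60 were higher and 70 lower. Thinning kept 81 of the 135 high-score nuclei, and the part of depth was not tested. Among higher genes the largest folds were those of Pou2af1, a lymphoid coactivator, with 25 counts where 5.36 would be had at the rate of the other nuclei, Lor, a protein of the skin barrier, with 106 counts in 35 nuclei (log2 fold 2.09, 1.66 to 2.50), and Nectin4, an adhesion molecule, with 97 counts in 33 nuclei (2.07, 1.60 to 2.49). Among lower genes they were those of Zfp750 (-3.60), Scgb1c1 (-3.49) and Wnt9b (-2.68), each on 2 to 4 counts.

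Of 14 further genes of the GABAergic lineage, 12 were above 0, 2 were 2-fold or more higher, and the median log2 fold was 0.29, against 0.04 over all genes. A list of genes of GABAergic neurons outside the telencephalon had nearly the same median, 0.27, with 9 of 11 genes above 0, and in the high-score nuclei outside the cluster described later its median was 0.39. The medians were 0.03 for progenitor genes, -0.02 for postmitotic neuron genes and -0.06 for Cajal-Retzius genes. Sp9, a zinc finger factor of ventral neurons, was at 123 CPM in the high-score nuclei and at 44.8 CPM in the other nuclei (log2 fold 1.46, 1.22 to 1.68) and had counts in 63 of the 135. Zeb2, a factor that directs MGE interneurons to the cortex, reached 0.75 (0.63 to 0.87). Not every gene followed, and Erbb4, a neuregulin receptor of migrating interneurons, stood at -0.20 (-0.39 to -0.02).

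Of 13 measured genes of the MGE lineage, 1 was 2-fold or more higher and 12 were above 0, with a median of 0.40. This was Kcnmb2, an accessory subunit of a calcium-activated potassium channel, with 58.3 CPM in the high-score nuclei and 25.2 CPM in the others (log2 fold 1.21, 0.87 to 1.54). Lhx8, a factor of ventral MGE neurons, went the other way at -0.66 (-1.32 to -0.12). Of 18 migration genes, only Ackr3, the scavenging receptor of Cxcl12, was 2-fold or more higher (log2 fold 1.46, 1.19 to 1.72), and 6 were above 0. Its counts came from 62 nuclei, with 9.41% from the richest one. Cxcr4, the signalling receptor of the same chemokine, had a log2 fold of 0.44 (0.14 to 0.72).

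Of 16 genes of cortical excitatory neurons, 0 were 2-fold or more lower, and the median was -0.16. Emx2, a factor of cortical progenitors, was lowest at -0.89 (-1.16 to -0.62), while Tbr1, a factor of early-born cortical neurons, was highest at 0.66 (0.47 to 0.84). Endothelial genes summed to 182 CPM in the high-score nuclei and 221 CPM in the others, microglial genes to 208 and 194 CPM, and erythroid genes to 25.8 and 35.2 CPM. Most microglial counts were those of Cx3cr1, at 142 and 143 CPM, and the 4 microglial genes with enough counts had a median log2 fold of 0.43, with 3 above 0. Gata1, Alas2, Hba-a1 and Hbb-bt of the erythroid list and Aif1 and Trem2 of the microglial list had no counts in any cluster of the library and say nothing of these cells. The lists of other cell types had no gene past 2-fold in either direction.

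Motif counts, the deposited sums over peaks that hold a transcription factor motif, differed little. Of all motifs, 0 (0%) passed 2-fold, and the log2 folds ran from -0.80 to 0.27. The 11 distal-less and other ventral homeodomain motifs had a median of -0.05, and the 12 proneural and neuronal bHLH motifs found had a median of -0.14. NEUROD2 stood at -0.17 (-0.19 to -0.14).

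The difference lay mostly in the nuclei with the highest scores. Over the first 27 ranks Sp9 had a log2 fold of 2.80 (2.38 to 3.16), Ackr3 of 2.66 (2.17 to 3.11) and Kcnmb2 of 2.53 (1.92 to 3.08), each taken over the 3600 nuclei that lie beyond the next 135 ranks. Of 16 migration genes 1, Ackr3, was 2-fold or more higher and 2 were lower, and 5 were above 0, with a median of -0.37 against 0.29 over all genes. In the same 27 nuclei Neurod2, a factor of excitatory neurons, stood at -2.27 (-3.90 to -1.05) and Fezf2, a factor of deep-layer cortical neurons, at -2.66 (-4.11 to -1.54). Over these ranks 885 of 6482 genes (13.7%) were 2-fold or more higher and 387 (5.97%) lower. Genes entered with 20 counts observed or expected, and this filter sets part of the excess and of the median over all genes. Of 15 cortical excitatory genes, 10 were 2-fold or more lower.

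In the last 27 ranks inside the threshold the pattern was close to that of the nuclei just outside it. Ackr3 had a log2 fold of 0.47 (-0.40 to 1.22) there and 0.85 (0.54 to 1.12) in the 135 nuclei next in rank. Kcnmb2 had 0.80 (-0.11 to 1.58) and 0.77 (0.41 to 1.11), and Fezf2 had -0.07 (-0.46 to 0.31) and 0.09 (-0.07 to 0.24). The 27 highest nuclei had a median of 10114 counts, with 49.2% of counts near start sites.

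**Figure D3:**
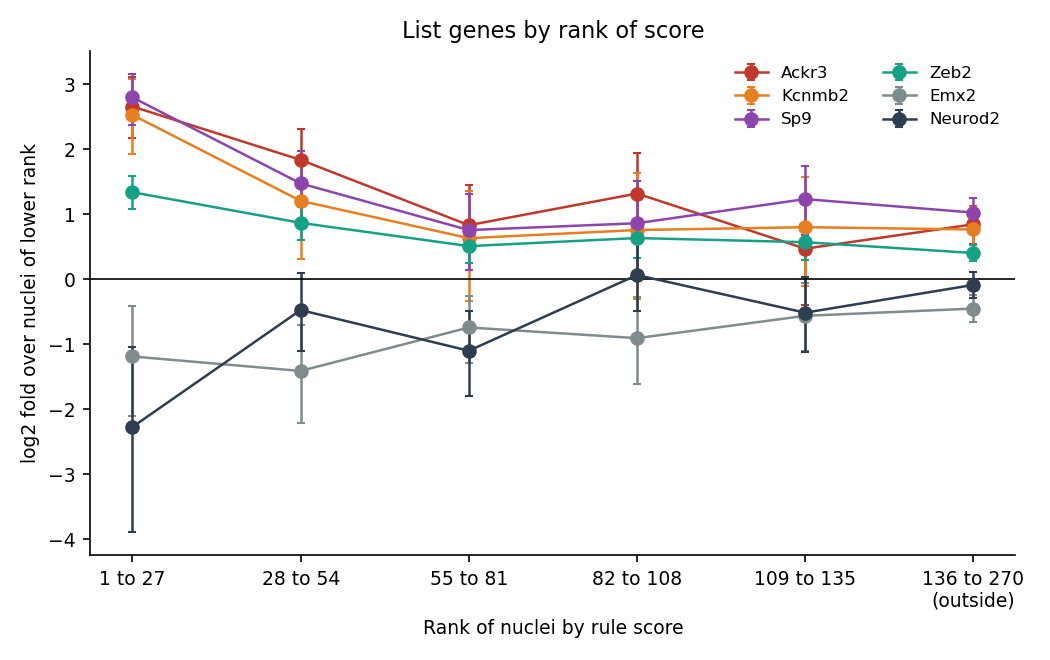
Log2 fold of 6 genes that the score did not use, in 5 bins of 27 high-score nuclei and in the 135 nuclei next in rank, over the 3600 nuclei of lower rank. Bars are 95% intervals of counting error. Ackr3, Kcnmb2 and Sp9 start at 2.53 to 2.80 and Neurod2 at -2.27, and the last bin inside resembles the bin outside.

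The nuclei were then placed by all peaks outside the scored ones. Each nucleus was given its 20 nearest neighbours in 30 dimensions of a latent semantic index. Of the neighbours of a high-score nucleus, 33.7% on average were high-score nuclei, where 3.49% of all nuclei were. The median was 10%, and 37 of the 135 had no such neighbour. Among nuclei with 10000 or more counts the mean was 20.2% and the median 5%, and 46 of 124 had none. The mean share was 63.5% in the first 27 ranks (median 80%) and 39.8%, 21.5%, 20.6% and 23.3% in the following bins of 27. The median was 10% in the first of these bins and 5% in the rest. In the 135 nuclei next in rank, outside the threshold, the mean was 14.9% and the median 5%. Each bin inside the threshold had a mean above 3.49%, and the highest ranks raised the mean over all high-score nuclei. In the E14.5 cortex it was 4.55%, where 3.5% of nuclei were high-score.

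Clustering on the same neighbours gave 11 clusters, and 1 of them, made without the scored peaks, held 55 of the 135 high-score nuclei and 21 of the first 27. It had 119 nuclei, or 3.07% of the library, and 46.2% of them were high-score. Its scored peaks were higher than in the rest of the library by 1.36 on the log2 scale (1.28 to 1.43), while the other clusters lay between -0.23 and 0.08. The cluster was picked for its share of high-score nuclei, which these same peaks had chosen. These values thus describe the pick and were not tested. Its high-score nuclei held 1372 scored counts among 968210 counts, and its nuclei below the threshold 1389 among 2797884, a lower share. The other 80 high-score nuclei were spread over 8 clusters, where they made up 0.662% to 3.34% of the nuclei. Other resolutions and seeds, chosen after seeing the data, gave a cluster of 117 to 123 nuclei with 54 or 55 high-score nuclei. In the E14.5 cortex the cluster picked in the same way, for the largest share of them, held 34 of them among 530 nuclei. Its scored peaks were higher by 0.17 (0.09 to 0.24).

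The 5 markers that name these nuclei separated both sets from the 3671 nuclei that were neither high-score nor in the cluster, because the score was built on them. Gad2, Slc32a1, Lhx6 and Dlx5 had higher folds in the 55 nuclei inside the cluster than in the 80 outside, for instance 2.54 and 1.48 for Gad2 and 2.60 and 2.07 for Dlx5. Dlx1 stood at 2.14 and 2.16. Among the other scored genes, for instance, Gad1 stood at 2.01 and 1.97 and Dlx6 at 1.38 and 2.32. The clustering used the peaks of the genes described next, so their differences between the sets are partly fixed by the split and carry no test.

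Inside the cluster, 631 of 12511 genes (5.04%) were 2-fold or more higher than in the neither group and 441 (3.52%) were lower. The filter on observed or expected counts also sets part of this excess and of the median over all genes. Ackr3 stood at 199 CPM and 32.9 CPM in the neither group (log2 fold 2.60, 2.28 to 2.88). Most migration genes went the other way, with 6 of 18 above 0 and a median of -0.31, and Dcc, a netrin receptor, stood at -1.13 (-1.52 to -0.76). Kcnmb2 reached 2.49 (2.10 to 2.84) and Elfn1, an organiser of synapses onto interneurons, 1.53 (1.16 to 1.85). Of 12 MGE lineage genes 10 were above 0 and 3 were 2-fold or more higher, while Lhx8 was 2-fold or more lower at -1.05 (-2.37 to -0.01) and Pde1a stood at -0.26 (-0.99 to 0.32). Of 13 GABAergic genes 11 were above 0, with a median of 0.69 against 0.24 over all genes. All 16 cortical excitatory genes were below 0, 11 of them 2-fold or more, with a median of -1.20. Neurod2 stood at -1.78 (-2.54 to -1.12) and Neurod6, its relative, at -1.61 (-2.42 to -0.91). Of 11 CGE lineage genes 2 were 2-fold or more higher and 2 lower. Npas1 stood at 1.56 (0.91 to 2.14), Adarb2 at 1.09 (0.77 to 1.39), and Sp8, a factor of CGE and olfactory interneurons, at -2.62 (-4.90 to -1.07) with 6 counts.

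Outside the cluster, 134 of 14192 genes (0.944%) were 2-fold or more higher and 257 (1.81%) lower. Ackr3 had a log2 fold of 0.11 (-0.45 to 0.62), Kcnmb2 of -0.63 (-1.60 to 0.09) and Elfn1 of -0.13 (-0.62 to 0.29). Of 13 GABAergic genes 7 were above 0, with a median of 0.02. Sp9 stood at 1.44 (1.13 to 1.71) and Zeb2 at 0.61 (0.45 to 0.76). Of 16 cortical excitatory genes 10 were above 0, with a median of 0.22 against -0.06 over all genes. Tbr1 stood at 1.09 (0.89 to 1.29), Lhx2, a selector of cortical identity, at 0.79 (0.64 to 0.93), and Neurod6 at 0.54 (0.28 to 0.79). Others were lower, with Emx2 at -0.62 (-0.93 to -0.32) and Neurod2 at -0.27 (-0.59 to 0.02), and 1 of the 16 was 2-fold or more higher. None of the 16 was 2-fold or more lower in the 80 nuclei, where 11 were inside the cluster. Sp9, Zeb2, Tbr1 and Lhx2 lie on chromosome 2 and Neurod6 on chromosome 6, the chromosomes of the scored genes. Emx2 and Neurod2 lie on others. The part of these chromosomes in the values was not tested.

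The 2 sets also differed in depth. The median nucleus held 9588 counts inside the cluster and 18436.5 outside it, and the share of counts near start sites was 49.7% and 40.4%. The 64 nuclei of the cluster that fell below the threshold had a median of 35675 counts. In them Ackr3 stood at 1.48 (1.21 to 1.73) and Kcnmb2 at 1.73 (1.43 to 2.00) over the neither group. The part of depth in these differences was not tested.

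**Figure D4:**
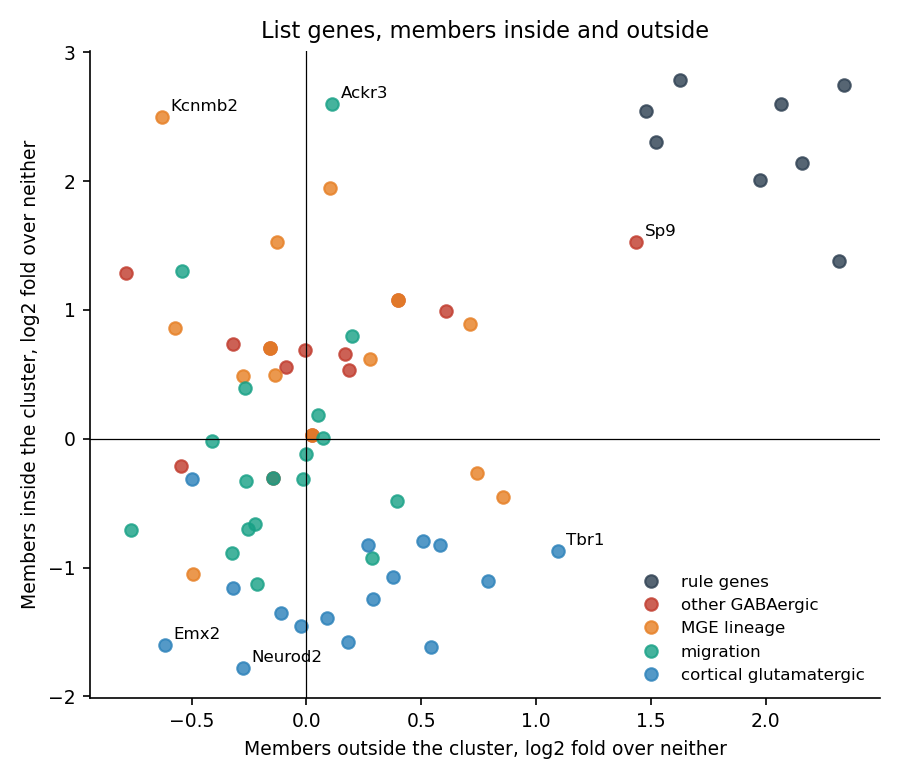
Log2 fold of list genes over nuclei in neither set, for the 80 high-score nuclei outside the cluster (horizontal) and the 55 inside it (vertical). Each point is 1 gene, coloured by list, and 1 gene of the further GABAergic list is not drawn. Cortical excitatory genes (blue) all lie below 0 inside the cluster, while 10 of 16 lie above 0 outside it.

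DNA is shown for Ackr3, Kcnmb2 and Elfn1, genes that were high inside the cluster and not outside it. For each gene the peak was taken with the largest excess of counts in the high-score nuclei, among peaks of up to 1500 bp away from start sites. Genes and peaks were chosen after the values were seen, so the values of these peaks describe the choice, and the 300 bases at its centre are printed from GRCm38, plus strand, 5′ to 3′. Capitals mark TAATT, a core of homeodomain motifs, the E-boxes CAGCTG and CATCTG, and TGACAG, a core of MEIS motifs, on either strand. TAATT read on the other strand is AATTA, and both readings overlap in TAATTA. The 3 windows lie within the bodies of these genes and overlap no annotated exon. Windows were also read for Zeb2 and Npas1 by the same rule. Both overlap an annotated exon, hold 0 matches of each of these motifs and are not printed.

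The Ackr3 window is chr1:90208776-90209075, 4919 bp from the start of the gene:
Ackr3: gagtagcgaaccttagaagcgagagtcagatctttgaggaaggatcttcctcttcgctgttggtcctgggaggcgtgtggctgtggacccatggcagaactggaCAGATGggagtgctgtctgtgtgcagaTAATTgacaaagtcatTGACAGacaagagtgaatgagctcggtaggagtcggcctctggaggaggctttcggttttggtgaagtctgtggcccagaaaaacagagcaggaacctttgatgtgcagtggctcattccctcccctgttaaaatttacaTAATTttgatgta

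Its peak held 118 counts in 34 high-score nuclei, where 8.15 would be had at the rate of the other nuclei (log2 fold 3.86, 3.41 to 4.28). Of these, 110 fell in the 55 nuclei inside the cluster and 8 in the 80 outside. The window holds 2 matches of TAATT, 1 of CATCTG and 1 of TGACAG.

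The Kcnmb2 window is chr3:32067228-32067527, 88737 bp from the start of the gene:
Kcnmb2: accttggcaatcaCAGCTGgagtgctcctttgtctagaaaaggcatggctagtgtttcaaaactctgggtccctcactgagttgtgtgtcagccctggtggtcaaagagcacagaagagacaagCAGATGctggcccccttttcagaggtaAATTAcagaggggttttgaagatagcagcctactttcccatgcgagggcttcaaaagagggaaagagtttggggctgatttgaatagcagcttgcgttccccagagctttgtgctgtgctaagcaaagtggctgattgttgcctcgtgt

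Its peak held 52 counts in 21 high-score nuclei, where 5.46 would be had (log2 fold 3.25, 2.59 to 3.87), with 44 inside the cluster and 8 outside. The window holds 1 match of TAATT and 1 of each E-box.

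The Elfn1 window is chr5:139944611-139944910, 36286 bp from the start of the gene:
Elfn1: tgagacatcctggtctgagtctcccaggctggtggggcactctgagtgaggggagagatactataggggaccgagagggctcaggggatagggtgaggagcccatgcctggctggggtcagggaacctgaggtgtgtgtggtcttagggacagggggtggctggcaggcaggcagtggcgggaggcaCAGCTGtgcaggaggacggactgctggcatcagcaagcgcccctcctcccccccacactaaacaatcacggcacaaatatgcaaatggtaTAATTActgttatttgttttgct

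Its peak held 38 counts in 15 high-score nuclei, where 3.18 would be had (log2 fold 3.58, 2.78 to 4.33), with 36 inside the cluster and 2 outside. The window holds 2 overlapping matches of TAATT and 1 of CAGCTG. Among 300-base windows at the centres of all 181339 peaks of the library, 42.5% hold TAATT, 21.2% CAGCTG, 30.4% CATCTG and 25.8% TGACAG, so that such matches are common and describe the letters only.

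The high-score nuclei were next set beside the eminences, to ask which they resembled. From each eminence library the top 25% of nuclei by score were summed, 828 to 1521 nuclei a library. Regions called higher in MGE than in the mean of LGE and CGE numbered 3815, and 4242 were called lower. An eminence index was taken as the share of a pool's counts in both sets that fell in the MGE-high set. It was 78.3% and 77.5% in the MGE pools, 41.1% and 43.8% in the CGE pools and 34.7% and 36.8% in the LGE pools.

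The high-score nuclei had an index of 49.5% (49.2 to 49.8) and the other nuclei of the library 42.4% (42.3 to 42.4). The first 27 ranks reached 61.4% (60.7 to 62.2) and the 55 nuclei inside the cluster 64.2% (63.7 to 64.7). Over the other cortical nuclei, the regions called lower in MGE had log2 folds of -0.73 in these ranks and -0.86 inside the cluster. The MGE-high regions had 0.39 and 0.43, so the index rose more through the fall of the former. Inside the cluster MGE-high regions took 582 counts per 10000, against 724 and 756 in the MGE pools. The 80 nuclei outside the cluster stood at 41.8% (41.5 to 42.2), next to the other cortical nuclei, and the high-score E14.5 nuclei at 41.2% (40.9 to 41.5). The regions were called on these same eminence pools, so the values of those pools are set by the choice of regions. The clustering used peaks in these regions, so the gap between nuclei inside and outside the cluster is partly fixed by the split. With regions chosen by fold on the replicate 1 pools alone, the index read in the replicate 2 pools was 56.0% in MGE, 27.4% in CGE and 23.0% in LGE. It was then 30.1% in the high-score nuclei, 39.8% inside the cluster, 25.9% outside it and 25% in the other cortical nuclei. With regions chosen on the replicate 2 pools and read in replicate 1, it was 73.2% in MGE, 38.1% in CGE and 27.9% in LGE. It was then 49.2% in the high-score nuclei, 65.4% inside the cluster, 41.1% outside it and 42.8% in the other cortical nuclei. The level thus depended on the regions, and under both choices the nuclei inside the cluster lay above the LGE and CGE pools not used and below the MGE pool not used. Since the other cortical nuclei already lay near the CGE pools, a value near 42% does not name an eminence.

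**Figure D5:**
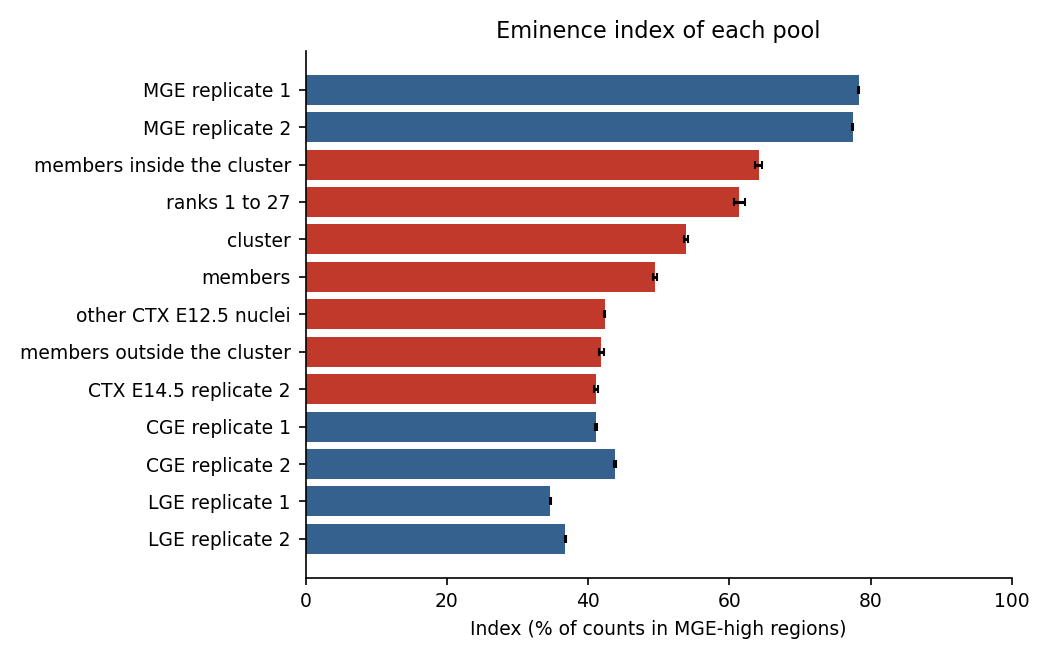
Eminence index, the share (%) of counts in MGE-high and LGE/CGE-high regions that fell in MGE-high regions, for each pool. Bars start at 0, error bars are 95% intervals of counting error, and blue bars are eminence libraries. The eminence values are set by the choice of regions. Nuclei inside the cluster stand at 64.2% and those outside at 41.8%, a gap partly fixed by the split.

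Differences from the eminences were tested with edgeR's quasi-likelihood test on 7 pools, the summed high-score nuclei and the 6 eminence pools. Gene counts were taken over regions shared by all libraries and outside the scored peaks. The single pool of high-score nuclei was assumed to vary like the eminence groups. Against the mean of the eminences 531 of 16231 genes (3.27%) were called higher and 91 (0.561%) lower at a Benjamini-Hochberg adjusted p of 0.05. Called genes numbered 500 higher (3.08%) and 125 lower (0.77%) against MGE, 327 (2.01%) and 66 (0.407%) against LGE, and 246 (1.52%) and 32 (0.197%) against CGE. Against MGE, 0 genes were called without MGE replicate 1 and 1 without MGE replicate 2, with 2993 and 3646 at an unadjusted p of 0.05. Without these libraries in turn the counts were also lower against the mean of the eminences (358 and 315), LGE (83 and 85) and CGE (34 and 51). With an offset for the length each library's peaks cover, 0 genes were called in any of the 4 contrasts by edgeR, with 1864 to 2629 at an unadjusted p of 0.05. The calls below thus depend on how covered length is treated. Under that offset the differences of the following genes were smaller and kept their sign, with Neurod6 at 1.51, Tbr1 at 0.97, Cxcr4 at 1.06, Zeb2 at 0.63, Lhx8 at -1.55, Nkx2-1 at -1.29 and Six3 at -1.21. Of the list genes called against the mean of the eminences, Epha4 (-0.11) and Myt1l (-0.11) turned in sign under it, and Plxna4 (0.50), Meis2 (0.36), Foxp1 (0.47), Gfra1 (-0.47) and Isl1 (-0.45) were at smaller differences than those given below. Zfp503 was called in 6 of 19 alternatives. Of the list genes called higher, Zeb2, Pde1a, Pax6, Meis2, Neurod1, Tbr1 and Lhx2 lie on chromosome 2. Plxna4, Emx1, Neurod6 and Foxp1 lie on chromosome 6. Others, Cxcr4, Neurod2 and Nfix among them, lie elsewhere. Chromosomes 2 and 6 hold the scored genes, and their part in the calls was not tested.

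Of the lists, cortical excitatory genes had the most genes that rose. Of 16, 11 were called higher against the mean of the eminences and 0 lower, with a median log2 difference of 1.05. Neurod6 was at 146 CPM in the high-score nuclei and at 8.21 to 20.5 CPM in the 6 eminence pools (log2 difference 3.51 ± 0.25 SE, edgeR adjusted p = 0.000286). It was also at 146 CPM in the other cortical nuclei. Tbr1 was at 252 CPM against 90.9 to 116 CPM (1.39 ± 0.16 SE, edgeR adjusted p = 0.00153) and at 168 CPM in the other cortical nuclei. In the 55 nuclei inside the cluster the median of the 16 genes against the eminences was -0.13, and Neurod1, Neurog2, Eomes, Tbr1, Fezf2 and Lhx2 turned in sign. The other called genes, Emx1, Neurod2, Neurod6, Slc17a6 and Nfix, kept their sign. The higher level of the list as a whole was not seen there. Tbr1 stood at 80.5 CPM in these nuclei and at 362 CPM in the nuclei outside.

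Of the 14 further GABAergic genes, 1 (Zeb2) was called higher than the mean of the eminences and 2 lower, Gsx2, a factor of LGE progenitors, and Nrxn3, a synaptic adhesion gene. Of the 18 migration genes 3 were called higher, Cxcr4 and the guidance receptors Plxna4 (log2 difference 1.40) and Epha4 (0.61), and 1 lower, Gfra1 (-0.82), a receptor of the GDNF family. The medians of the lists were -0.17 and 0.12. Epha4 turned in sign inside the cluster (-0.57), in ranks 1 to 27 (-0.71) and with the covered-length offset (-0.11). Cxcr4 was at 107 CPM in the high-score nuclei, at 52.5 and 44.0 CPM in MGE, 60.3 and 40.2 CPM in CGE and 59.4 and 47.3 CPM in LGE (log2 difference 1.13 ± 0.23 SE, edgeR adjusted p = 0.0231). The high-score pool lay above all 6, and the other cortical nuclei were at 82.8 CPM. Zeb2 was at 562 CPM, against 287 to 363 CPM in the eminences (0.90 ± 0.15 SE, edgeR adjusted p = 0.00922) and 356 CPM in the other cortical nuclei. In the nuclei inside the cluster the differences were 1.31 for Cxcr4 and 0.94 for Zeb2, given without a test because the clustering used their peaks. Ackr3 was not called with all high-score nuclei (-0.09, edgeR adjusted p = 0.806). It was at 226 CPM in the nuclei inside the cluster, 38.3 CPM in those outside and 139 and 154 CPM in MGE, values that likewise carry no test.

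Of 14 MGE lineage genes 1 (Pde1a, 1.42) was called higher and 2 lower, Lhx8 and Nkx2-1. Of 16 LGE and striatal genes 2 were called higher, Meis2 (0.82) and Foxp1 (0.83), and 3 lower, Six3, Isl1 (-0.996) and Zfp503 (-1.13). Of 13 CGE lineage genes 1 (Pax6, 0.77) was called higher and 0 lower. Inside the cluster Meis2 (-0.49), Foxp1 (-0.29) and Pax6 (-0.60) turned in sign. Lhx8 was at 25.9 CPM, against 162 and 179 CPM in MGE, 54.0 and 58.2 CPM in CGE and 70.9 and 86.6 CPM in LGE (-1.76 ± 0.25 SE, edgeR adjusted p = 0.00424). Nkx2-1, the factor that specifies the MGE, was at 35.0 CPM, against 585 and 390 CPM in MGE and 76.2 to 113 CPM in the others (-2.11 ± 0.30 SE, edgeR adjusted p = 0.00424). Six3, an anterior forebrain factor that also serves striatal neurons, was at 50.2 CPM against 203 to 262 CPM (-2.11 ± 0.23 SE, edgeR adjusted p = 0.00153). The other cortical nuclei were low too, at 44.3 CPM for Lhx8, 36.8 CPM for Nkx2-1 and 50.8 CPM for Six3. In the nuclei inside the cluster Lhx8 stood at -2.31 and Six3 at -2.30, again without a test. Of 5 microglial genes tested, 1 was called higher with all high-score nuclei, Csf1r, a growth factor receptor of microglia (2.02 ± 0.49 SE, edgeR adjusted p = 0.0429). Inside the cluster Csf1r was at 1.62 (0.41 to 2.48) over the neither group, on 19 counts, Ptprc at 0.40 (-0.39 to 1.08) and Cx3cr1 at -0.24 (-0.64 to 0.13). Their part in the results was not tested.

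Motif counts were the deposited sums over each library's own peaks, with the scored peaks included. Of all motifs, 0 (0%) were called higher and 2 (0.345%) lower against the mean of the eminences by edgeR, with 94 at an unadjusted p of 0.05 and 72 called by DESeq2. Without LGE replicate 1, and with the E14.5 nuclei added, 0 were called, and without MGE replicate 1, CGE replicate 1 or CGE replicate 2 the count was 1. The 2 were the motifs of Lhx8 (-1.46 ± 0.09 SE, edgeR adjusted p = 0.00521) and GSC2 (-1.71 ± 0.14 SE, edgeR adjusted p = 0.012). Over the other nuclei of the library, neither was as low as Hoxc9, at -0.17. Whether these differences belong to the high-score nuclei or to their whole library was not tested.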

How the data were processed

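The authors deposited, for each of the 8 libraries, raw counts per peak and barcode and raw counts per motif and barcode, made with Cell Ranger ATAC 1.2.0 on GRCm38 (mm10) per the submitters' processing notes. Peaks were called separately in each library. The members and gene lists were chosen with earlier results of these data known. Named genes were the scored genes, the genes of 15 lists, and those with the largest folds. Genes were 21951 protein-coding genes of GENCODE M21, summed over peaks in the body or 2000 bp upstream, without the scored peaks. Within a library, genes entered counts and medians with 20 counts observed, or expected at the rate of the reference nuclei. Between libraries, pools were tested with edgeR 4.0.16 (glmQLFit, TMM, filterByExpr) in R 4.3.3, and with DESeq2 1.42.0 as an alternative. Gene counts came from regions shared by all libraries, and motif counts from each library's own peaks. scikit-learn 1.9.0 and leidenalg 0.10.2 gave neighbours and clusters. The fits were tested on simulated data. No cells were removed as doublets. Of the further GABAergic genes, 1 is included in counts and medians but not reported here by name.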

Additional observations from a re-analysis of the deposited data

Results flagged for a closer look

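Ackr3 and Kcnmb2 were 2-fold or more higher in the high-score nuclei of the E12.5 cortex and lower in those of the E14.5 cortex. Ackr3 had a log2 fold over the other nuclei of 1.46 at E12.5 and -0.26 at E14.5. Kcnmb2 had 1.21 and -0.48. Each age is 1 library and the difference was not tested. Both E14.5 intervals include 0 (-0.77 to 0.21 for Ackr3 and -1.14 to 0.11 for Kcnmb2).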

How the results depend on the processing

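Within the E12.5 cortex, 266 genes passed 2-fold. The count was 551 with the top 2% of nuclei, 171 with the top 5%, 130 with scores after thinning each nucleus to 5000 counts, 94 with 50 counts in place of 20, 79 in the E14.5 cortex and 1252 in ranks 1 to 27. Peaks past 2-fold numbered 845 in the E14.5 cortex and 1501 in ranks 1 to 27, against 5229, and 1 motif passed with the top 2%. The mean share of neighbours was 31.3% with the top 5%, which made up 5.01% of nuclei. It was 20.2% for nuclei with 10000 or more counts, 26.7% after thinning and 4.55% in the E14.5 cortex, where 3.49% to 3.51% of nuclei were chosen. With only ranks 1 to 27 counted as chosen, 0.698% of nuclei, it was 23.3%. That was 33.4 times their share of nuclei, against 9.67 times for all high-score nuclei. The eminence index was 30.1% with regions of replicate 1 pools, where the other nuclei were at 25%, and 49.2% with those of replicate 2, where they were at 42.8%. It was 52.8% with the top 2%, 47.7% with the top 5% and after thinning, 47.2% for nuclei with 10000 or more counts, 61.4% for ranks 1 to 27, 64.2% inside the cluster and 41.2% in the E14.5 cortex.

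Genes called against the mean of the eminences, MGE, LGE and CGE, in this order, numbered 622, 625, 393 and 278. They were 1083, 1146, 827 and 644 with DESeq2, and 0 in each with the covered-length offset. With covered length within 2 times they were 106, 139, 8 and 11, and with regions within 1000 bp of a start site 187, 145, 88 and 73. Each library's own peaks gave 1067, 940 and 660 for the first 3. Adding the E14.5 nuclei gave 214 against LGE, and nuclei with 10000 or more counts gave 459 against CGE. Ranks 1 to 27 gave 360 against MGE and 123 against CGE, and nuclei inside the cluster gave 234, 28 and 6 against the mean, MGE and CGE. Leaving out 1 eminence library gave 315 to 1184, 0 to 1173, 83 to 757 and 34 to 582. The lowest came without MGE replicate 2 for the mean and without MGE replicate 1 for the rest. Motifs called were 72, 39, 95 and 22 with DESeq2 and 0 in each with the E14.5 nuclei added, and 0 to 2, 0 to 1, 0 to 2 and 0 to 1 without 1 library. The cause was not tested.

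With the replicate number as a block, 384, 414, 203 and 145 genes and, against LGE, 37 motifs were called. Deviations of same-numbered libraries correlated at 0.06 (MGE and LGE), 0.03 (MGE and CGE) and 0.58 (LGE and CGE), and the main fit did not pair the samples by number. A trait of the counts did follow the number. Of the nonzero entries, 9.55% to 10.4% were odd in the replicate 1 libraries and 5.17% to 5.85% in the replicate 2 libraries. The high-score nuclei come from a replicate 1 library, and what this trait stands for was not tested.

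Signs turned against the mean of the eminences as follows. Inside the cluster these were Pax6 (-0.60), Meis2 (-0.49), Foxp1 (-0.29), Epha4 (-0.57), Neurod1 (-0.12), Neurog2 (-0.30), Eomes (-0.20), Tbr1 (-0.30), Fezf2 (-0.24) and Lhx2 (-0.54). In ranks 1 to 27 they were Epha4 (-0.71), Neurod1 (-0.21), Neurog2 (-2.10), Eomes (-0.34), Slc17a6 (-1.07) and Fezf2 (-1.32). With the covered-length offset Epha4 (-0.11) and Myt1l (-0.11) turned, as did Epha4 (-0.059) with covered length within 2 times, Myt1l (-0.030) near start sites, and Zic1 (0.16) and Zic4 (0.10) with the E14.5 nuclei added. Over the other nuclei, Kcnmb2 (-0.48) and Ackr3 (-0.26) turned in the E14.5 cortex. Ranks 1 to 27 and the cluster were chosen after seeing the data. Depth limits what single nuclei show, since the median high-score nucleus rests on 18 scored counts.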
